A study of Populus ussuriensis with 12 samples.

Results

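Phenylalanine ammonia-lyase (PAL) converts phenylalanine into cinnamate and so opens the phenylpropanoid pathway, from which plants make lignin, flavonoids and condensed tannins. The poplar family studied here has 5 genes, PAL1 (Potri.006G126800), PAL2 (Potri.008G038200), PAL3 (Potri.016G091100), PAL4 (Potri.010G224100) and PAL5 (Potri.010G224200), and all 5 were found by identifier among the 34699 genes of the deposited table. The names follow the usual numbering of the family in Populus trichocarpa. The identifiers place PAL1 on chromosome 6, PAL3 on chromosome 16, PAL2 on chromosome 8, and PAL4 and PAL5, with consecutive numbers, on chromosome 10. Chromosomes 6 and 16, and 8 and 10, are known as partners from the whole-genome duplication of the willow family. All plant PAL enzymes carry out the same reaction, and in trees different PAL genes have been linked to lignifying cells and to cells that store condensed tannins. In roots the pathway supplies the lignified walls of the water-conducting cells and of barrier layers, and PAL transcripts are known to respond to water shortage and other stresses in many plants.

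Levels were measured by RNA-seq of Populus ussuriensis root tips, cut at 0.5 cm, from plants grown in vitro. Wild-type plants (WT) and plants overexpressing the CCCH zinc finger gene PuC3H35 (OE) were moved at 1 week of age to agar with 6% PEG6000, an osmotic agent that withdraws water, or to the same agar with none, and stayed there for 7 days. The 4 groups, WT, WT under PEG, OE and OE under PEG, have 3 libraries each. The 6 OE libraries carry 6 different gene numbers in their genotype labels, while the series title gives 1 overexpression genotype, as which they were treated here. Which promoter drives the transgene, and how many independent lines there are, is not stated in the labels. With no annotation at hand, the transgene itself and markers of the root tip were not looked up. No label says that the 3 libraries of a group came from separate plants or cultures, so p-values cover the spread between these libraries, which may be technical.

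The 5 genes were well covered. Libraries held 27122613 to 37101856 reads, as recovered from the steps between FPKM values (reads scaled to gene length and library depth). PAL5, the weakest member, had 863 to 1796 reads per library, and PAL1, the strongest, had 18345 to 45523. If each recovered read is an independent fragment, counting error alone was 2.4% to 3.4% of a single PAL5 value and 0.47% to 0.74% of a PAL1 value. Whether a read here is a pair or a single mate is not stated in the labels, and for mates these errors would be larger. The SD between the 3 libraries of a group was 0.46% to 10% of the mean over the 20 combinations of gene and group, with the largest value for PAL5 in OE under PEG.

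PAL1 was the most abundant member in each of the 4 groups and PAL5 the least. In WT without PEG the mean levels were 219 ± 3.76 FPKM for PAL1, 182 ± 1.77 for PAL2, 96.8 ± 1.63 for PAL3, 45.4 ± 1.38 for PAL4 and 14.6 ± 0.197 for PAL5 (SD, n = 3 here and for every group mean below). FPKM is per length, so these levels can be compared between genes. PAL1 stood above 98.6% of all genes in this group and PAL5 above 77.4%. All 3 values of each gene lay above all 3 of the next in the order, in this group and in the other 3 groups. The order itself differed between genotypes: PAL2 ranked above PAL3 in WT with and without PEG, and in OE they changed places on both media.

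**Figure D1:**
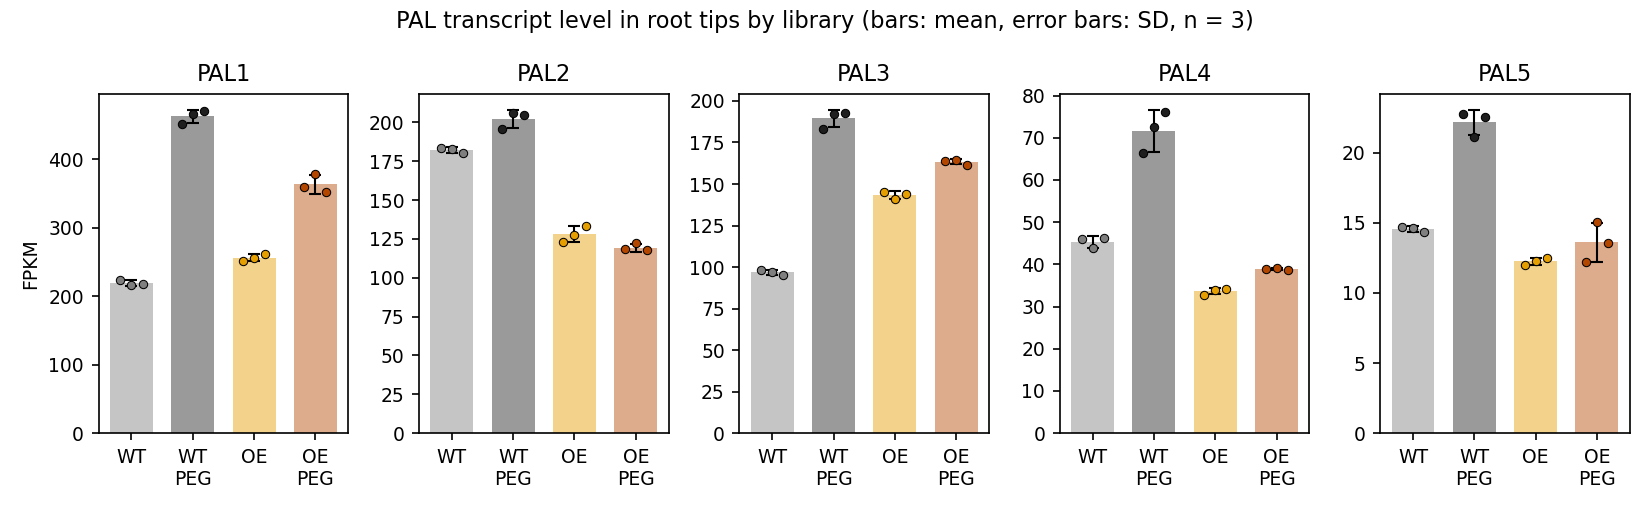
FPKM (vertical axis, linear, its own scale for each gene) of the 5 PAL genes in the 4 groups; points are libraries, bars are means and error bars are SD (n = 3). In WT all 5 genes were higher with PEG, and in OE the gap between the media was smaller for each of them, with PAL2 at 128 FPKM without PEG and 119 under it.

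The first comparison asked how root tips of WT respond to PEG. All 5 PAL genes rose, PAL1 and PAL3 about doubling while PAL2 rose least. PAL1 stood at 223, 217 and 217 FPKM in the 3 WT libraries without PEG and at 452, 466 and 470 under PEG. The mean went from 219 ± 3.76 to 463 ± 9.68, a ratio of 2.11, and no library of one medium overlapped with the other. The log2 fold change, on the log2(FPKM + 1) scale used for all tests, was 1.07 (SE 0.03, limma adjusted p = 9.5e-13 over all genes tested). PAL3, the other gene of the chromosome 6 and 16 pair, had 98.5, 96.8 and 95.2 FPKM without PEG and 183, 192 and 193 under it. Its mean rose 1.96-fold to 189 ± 5.30 (log2 fold change 0.96, SE 0.03, limma adjusted p = 1.6e-12).

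The genes on chromosomes 8 and 10 rose less in WT. PAL4 had 46.0, 43.8 and 46.3 FPKM without PEG and 66.3, 72.5 and 76.2 with it, a ratio of means of 1.58 (log2 fold change 0.65, SE 0.05, limma adjusted p = 1.7e-08). Its neighbour PAL5 had 14.7, 14.7 and 14.3 FPKM without PEG and 22.8, 21.1 and 22.6 with it, a ratio of 1.52 (log2 fold change 0.57, SE 0.06, limma adjusted p = 1.4e-06). PAL2 had 183, 183 and 180 FPKM without PEG and 195, 206 and 205 with it. That is a ratio of only 1.11, which still passed the test (log2 fold change 0.15, 95% interval 0.07 to 0.23, limma adjusted p = 0.0018), and its log2 fold change was 0.26 with quantile normalization. All 5 genes were thus called higher, where 29.9% of the 22640 genes tested were, and none of the 5 overlapped between media, as was so for 67.7% of all genes in either direction. The median log2 fold change was 0.65 over the 5 genes and -0.04 over all genes tested. A larger number of transcripts per cell and a larger share of cells that express a gene cannot be told apart in such whole root tips. How reads that match several PAL genes were counted is not stated in the labels, so the division of reads between close copies, such as PAL4 and PAL5, is uncertain.

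The second comparison measured the same response in OE root tips, where the changes were smaller. PAL1 had 252, 255 and 261 FPKM without PEG and 360, 378 and 352 under it, with no overlap. Its mean rose 1.42-fold, from 256 ± 4.77 to 363 ± 13.5 (log2 fold change 0.50, SE 0.03, limma adjusted p = 4.7e-09). PAL1 gained 107 FPKM in OE, against 243 in WT. PAL3 had 145, 141 and 144 FPKM without PEG and 164, 165 and 162 under it. This rise of 1.14-fold was small but larger than the spread between libraries (log2 fold change 0.19, SE 0.03, limma adjusted p = 8.6e-05).

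PAL4 had 32.8, 34.0 and 34.2 FPKM without PEG in OE and 38.9, 39.0 and 38.7 under it, a ratio of 1.16 (log2 fold change 0.20, SE 0.05, limma adjusted p = 0.0015). PAL2 went the other way, with 123, 127 and 133 FPKM without PEG and 118, 122 and 118 under it. Its mean fell from 128 ± 5.07 to 119 ± 2.49 (log2 fold change -0.10, SE 0.04, limma adjusted p = 0.022), although the highest library under PEG lay less than 2 FPKM below the lowest without it. PAL5 had 12, 12.2 and 12.5 FPKM without PEG and 12.2, 15 and 13.6 under it. The groups overlapped for PAL5, and the difference did not pass the test (log2 fold change 0.14, 95% interval 0.00 to 0.27, limma adjusted p = 0.066). In OE, 3 of the 5 genes were called higher with PEG and 1 lower, where 30.5% and 34.1% of all genes were. On the deposited scale 4 did not overlap, where 68.9% of all genes did not, and with median-of-ratios scaling 3 did not. Of the 4 calls, those of PAL2 and PAL4 depended on the processing. Other scaling moved the background too, since 47.3% of all calls were higher here and 35.3% with every library rescaled to the same FPKM sum.

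For PAL2 in OE the call was lost without OE replicate 3 (log2 fold change -0.07, limma adjusted p = 0.099), without OE PEG replicate 1 (-0.09, adjusted p = 0.064) and without OE PEG replicate 3 (-0.09, adjusted p = 0.071), and with the trend of each library with gene length removed, an alternative added after the data were seen, the value was 0.005 (adjusted p = 0.92). The PAL2 fall was larger with equal FPKM sums (-0.21, limma adjusted p = 6.5e-05) and with quantile normalization (-0.22, adjusted p = 3.5e-05). For PAL4 the call was lost with equal FPKM sums (0.10, limma adjusted p = 0.079) and with quantile normalization (0.09, adjusted p = 0.10), and PAL3 kept it at 0.08 (adjusted p = 0.034) and 0.09 (adjusted p = 0.011). With the length trend removed both rises were larger, at 0.34 for PAL4 (limma adjusted p = 5.6e-05) and 0.31 for PAL3 (adjusted p = 2.8e-06). PAL5 was called without OE PEG replicate 1 (0.21, limma adjusted p = 0.0072), the library with the lowest of its values under PEG, and stood at 0.07 (adjusted p = 0.32) without OE PEG replicate 2. It was also called with the length trend removed (0.22, limma adjusted p = 0.0086), and stood at 0.03 (adjusted p = 0.65) with equal FPKM sums. The members are longer, at 2514 to 3051 bp by recovered length, than the 1801 bp median of genes with a summed FPKM over 50. PAL1 was called higher with PEG in OE under each alternative run.

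**Figure D2:**
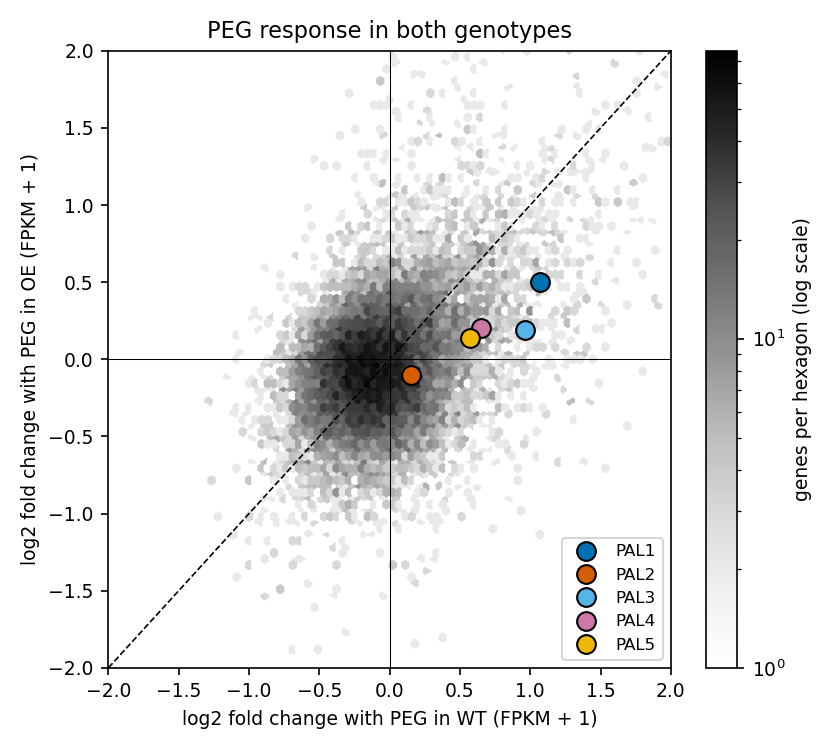
Log2 fold change with PEG in WT (horizontal) and in OE (vertical), both of FPKM + 1, for the 22640 genes tested (grey hexagons, shade on a log scale; 856 genes lie outside the range of 2 log2 units) and for the 5 PAL genes (coloured points). The dashed line marks equal responses, and all 5 PAL points lie below it; the 2 axes share no library.

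The response to PEG was smaller in OE than in WT for all 5 genes by the test of the interaction, the change with PEG in OE less the change with PEG in WT. The difference was greatest for PAL3, at -0.77 (SE 0.04, limma adjusted p = 2.3e-09), whose mean rose 1.96-fold in WT and 1.14-fold in OE. It was -0.57 for PAL1 (SE 0.05, limma adjusted p = 1.1e-07). PAL4 and PAL5 both had -0.44 (SE 0.07 and 0.09, limma adjusted p = 4.8e-05 and 6.4e-04). PAL2 had the smallest, -0.25 (95% interval -0.36 to -0.14, limma adjusted p = 6.2e-04), from a gain of 20.1 FPKM in WT and a change of -8.67 FPKM in OE. Among all genes tested 29% were called below 0 in this contrast, and the median was 0.01, against -0.44 over the 5 PAL genes. In the distribution of all genes the 5 values lay between the lowest 8.2% and the lowest 29.7%, so genes with stronger interactions were common. All 5 calls held under each alternative run, while the values moved with scaling. With equal FPKM sums they were -0.70 for PAL1, -0.38 for PAL2, -0.91 for PAL3, -0.57 for PAL4 and -0.56 for PAL5. With quantile normalization they were -0.76, -0.48, -0.95, -0.61 and -0.45 in the same order. Of all interaction calls 48.9% were above 0, and 35.2% with equal FPKM sums.

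The third comparison asked how OE root tips differ from WT on ordinary medium, and here the family divided. PAL1 and PAL3 were higher in OE, and PAL2, PAL4 and PAL5 were lower. PAL3 had 145, 141 and 144 FPKM in OE against 98.5, 96.8 and 95.2 in WT, a ratio of 1.48 (log2 fold change 0.56, SE 0.03, limma adjusted p = 1.4e-09). PAL1, at 252 to 261 FPKM in OE and 217 to 223 in WT, was 1.17-fold higher (log2 fold change 0.22, SE 0.03, limma adjusted p = 4.3e-05). PAL2 had 123, 127 and 133 FPKM in OE against 183, 183 and 180 in WT, which is 70.3% of the WT level (log2 fold change -0.51, SE 0.04, limma adjusted p = 1.9e-08).

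PAL4 was at 74.2% of its WT level, with 32.8 to 34.2 FPKM in OE and 43.8 to 46.3 in WT (log2 fold change -0.42, SE 0.05, limma adjusted p = 2.7e-06). PAL5 was at 84.2%, with 12 to 12.5 FPKM against 14.3 to 14.7 (log2 fold change -0.23, SE 0.06, limma adjusted p = 0.0055). None of the 5 genes overlapped between genotypes, as was so for 60.7% of all genes. The 2 genes called higher stand beside a background of 31.7% and the 3 called lower beside 23.4%. Of all calls in this contrast 57.5% were higher in OE, and 45.5% with quantile normalization, while the direction and call of each PAL gene held under each alternative. This comparison and the response of WT to PEG share the WT libraries without PEG. Side by side, PAL1 and PAL3 were higher in both, and PAL2, PAL4 and PAL5 were lower in OE but higher in WT under PEG.

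Under PEG all 5 genes were lower in OE than in WT. PAL4 had 38.9, 39.0 and 38.7 FPKM in OE and 66.3, 72.5 and 76.2 in WT, or 54.3% of the WT level (log2 fold change -0.86, SE 0.05, limma adjusted p = 5.0e-10). PAL2 had 118, 122 and 118 FPKM against 195, 206 and 205, or 59.0% (log2 fold change -0.76, SE 0.04, limma adjusted p = 9.3e-11). PAL5 had 12.2, 15 and 13.6 FPKM against 22.8, 21.1 and 22.6, or 61.5% (log2 fold change -0.67, SE 0.06, limma adjusted p = 2.2e-07). All OE libraries lay below all WT libraries for these 3 genes.

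PAL1 and PAL3, which were higher in OE without PEG, were lower in OE under PEG. PAL1 had 360, 378 and 352 FPKM in OE and 452, 466 and 470 in WT, or 78.5% (log2 fold change -0.35, SE 0.03, limma adjusted p = 2.7e-07). PAL3 had 164, 165 and 162 FPKM against 183, 192 and 193, or 86.2% (log2 fold change -0.21, SE 0.03, limma adjusted p = 2.3e-05). The PAL3 difference was -0.12 with the length trend removed, -0.33 with equal FPKM sums and -0.40 with quantile normalization (limma adjusted p = 0.0079, 1.5e-07 and 1.4e-08). The 5 genes called lower stand beside 32.2% of all genes, and their lack of overlap beside 71.7%. The median log2 fold change was -0.67 over the 5 genes and 0.03 over all genes. Of all calls here 52.9% were higher in OE, and 40.5% with equal FPKM sums.

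**Figure D3:**
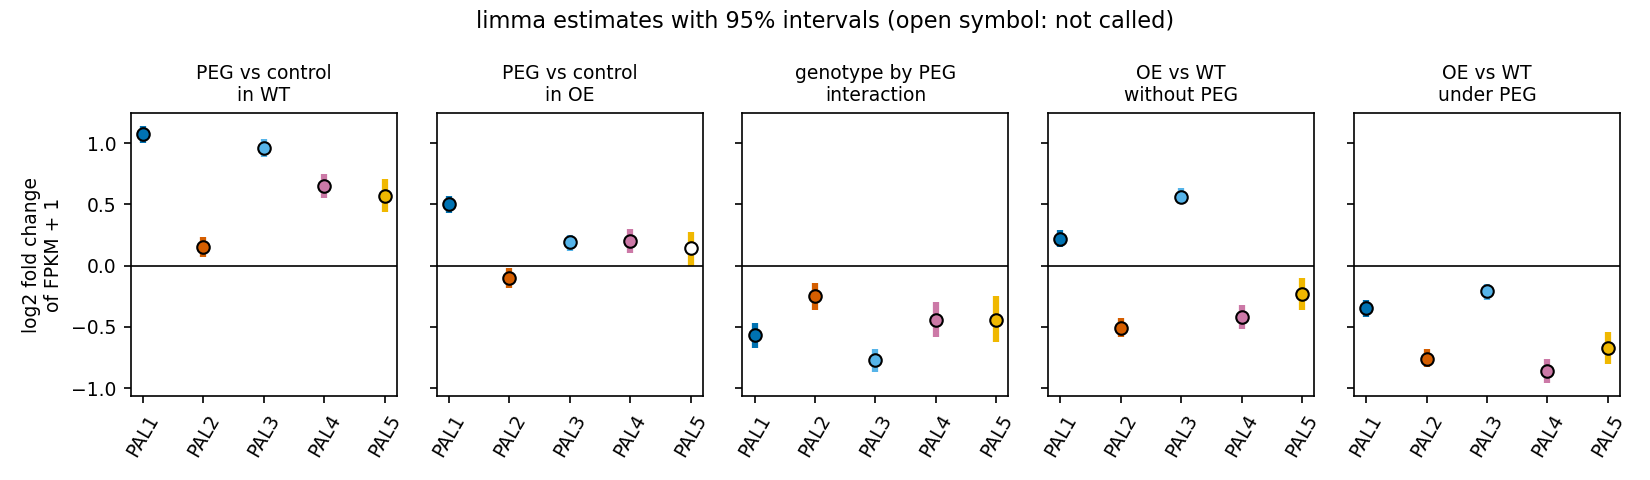
Log2 fold change of FPKM + 1 (vertical axis) of the 5 PAL genes in the 5 contrasts, as limma estimates (points) with 95% intervals (bars); the interaction is the change with PEG in OE less that in WT. The open symbol, PAL5 with PEG in OE, marks the 1 test not passed; all 5 genes lie above 0 for PEG in WT and below 0 for the interaction and for OE against WT under PEG.

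Summed over the 5 genes, the PAL level was close between genotypes without PEG and differed under it. The sum was 558 ± 6.97 FPKM in WT and 573 ± 10.7 in OE, and the 2 groups overlapped, with 553 to 566 in WT and 565 to 585 in OE. Under PEG it was 948 ± 25.1 FPKM in WT (919 to 967) and 698 ± 18.4 in OE (683 to 719), with no overlap. PEG thus went with a 1.70-fold higher sum in WT and a 1.22-fold higher sum in OE. No p is given for a sum over chosen genes. With equal FPKM sums the log2 ratio for PEG in OE was 0.174 instead of 0.285. The FPKM of all genes summed to 661656 to 665551 in the OE libraries under PEG and to 610202 to 623973 in the libraries of the other groups. Size factors from median-of-ratios scaling did not set that group apart, at 0.978 to 1.003 against 0.973 to 1.03 in the others.

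The composition of the sum differed between genotypes on both media. PAL1 and PAL3 together made up 56.6% ± 0.219 of the sum in WT, 69.7% ± 0.526 in OE, 68.8% ± 0.249 in WT under PEG, and 75.4% ± 0.218 in OE on that medium. In FPKM this pair stood at 316 ± 5.18 in WT and 399 ± 5.13 in OE without PEG, and at 652 ± 15 and 527 ± 14.8 under PEG. PAL2, PAL4 and PAL5 together stood at 242 ± 1.80 FPKM in WT and 174 ± 6.01 in OE without PEG, and at 296 ± 10.2 and 172 ± 3.84 under PEG. In OE the summed level of these last 3 genes overlapped between media, with 168 to 180 FPKM without PEG and 169 to 176 under it. That sum combines changes in both directions, with mean changes under PEG in OE of -8.67 FPKM for PAL2, 5.24 for PAL4 and 1.36 for PAL5. The PAL1 share was lowest in WT, at 39.3% ± 0.217, and highest in OE under PEG, at 52.0% ± 0.558. The PAL2 share ran the other way, from 32.6% ± 0.293 in WT through 22.3% ± 0.484 in OE and 21.3% ± 0.178 in WT under PEG to 17.1% ± 0.110 in OE under PEG. Scaling a library by 1 factor leaves these shares as they are. The grouping by chromosome was adopted with the values in view.

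**Figure D4:**
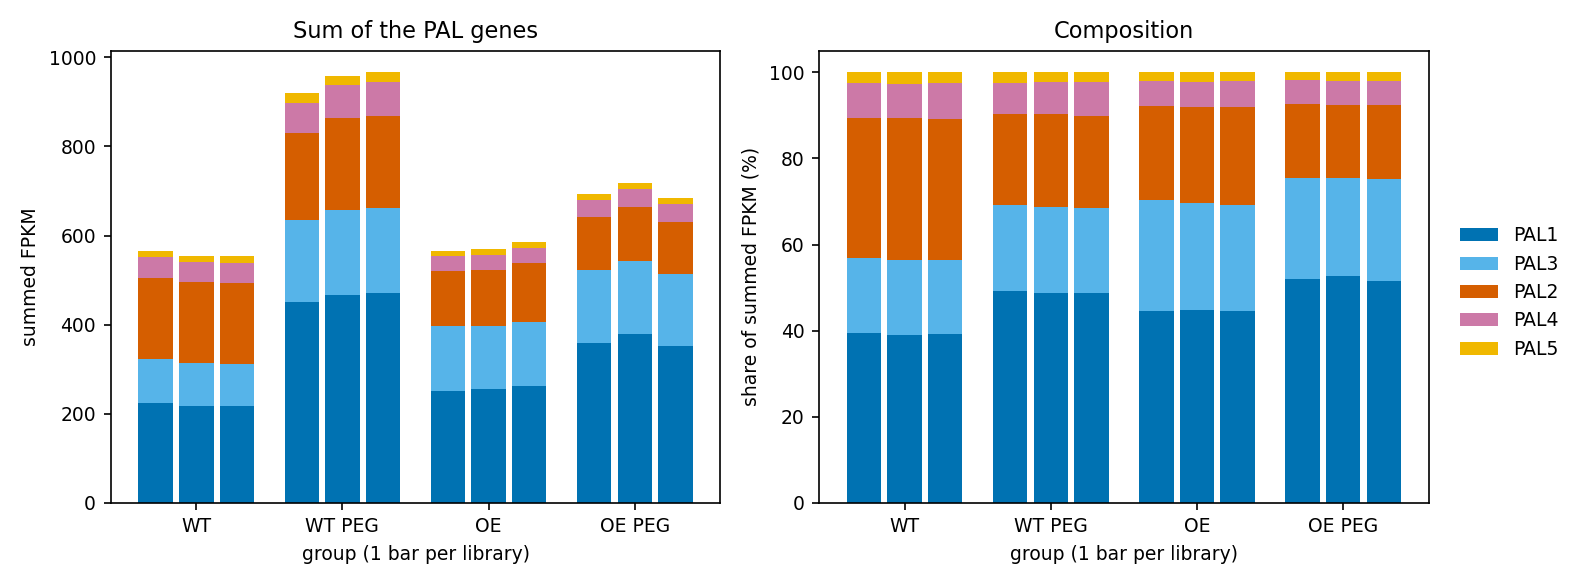
Summed FPKM of the 5 PAL genes (left) and the share of each gene in that sum in percent (right), with 1 bar per library and PAL1 and PAL3 in blue at the bottom. The 6 libraries without PEG reach 553 to 585 FPKM in both genotypes, but the blue part is 56.6% of the sum in WT and 69.7% in OE.

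Ratios between members were compared within libraries, for 10 pairs of genes in 4 contrasts. An exact two-sided permutation test of 3 against 3 libraries cannot go below p = 0.10, which is reached whenever the 2 groups do not overlap. Of the 40 tests 34 reached it, with adjusted p of 0.12 at the lowest. The 40 tests rest on 5 genes and are not independent, and the share among other pairs of genes was not computed. Of all single genes tested, 60.7% to 71.7% did not overlap in these contrasts, so the count by itself does not set the PAL genes apart. The largest shift was in the ratio of PAL2 to PAL3, whose log2 value was 0.90 ± 0.01 in WT and -0.16 ± 0.06 in OE without PEG, so that the more abundant of the 2 genes changed from PAL2 to PAL3 (exact p = 0.10, adjusted 0.12). For the neighbours PAL4 and PAL5 the log2 ratio overlapped between media in both genotypes. It was 1.58 ± 0.06 without PEG and 1.65 ± 0.13 under it in WT (exact p = 0.40, adjusted over the 40 tests 0.43), and 1.39 ± 0.01 and 1.45 ± 0.14 in OE (exact p = 0.60, adjusted 0.63). With 3 libraries a group, such p-values do not show that the ratios were equal. Between genotypes without PEG the PAL4 to PAL5 ratio differed by -0.19, with no overlap (exact p = 0.10, adjusted 0.12).

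Among genes outside the family that varied by at least 1 log2 unit, 6723 in number, the profile over the 12 libraries most like that of PAL1 belonged to Potri.014G030500 (Pearson's r = 0.996 of log2(FPKM + 1)). It stood at 5.38 ± 0.241 FPKM in WT, 36.8 ± 2.73 in WT under PEG, 8.73 ± 1.27 in OE and 21.8 ± 1.63 in OE under PEG. For PAL3 it was Potri.009G044600 (r = 0.996), with 10.6 ± 0.653, 40.5 ± 0.549, 24.2 ± 0.704 and 28.7 ± 0.446 FPKM in the same order. For PAL2 it was Potri.014G151101 (r = 0.994), an abundant transcript at 1130 FPKM in WT, 1540 in WT under PEG, 366 in OE and 251 in OE with PEG. For PAL4 it was Potri.012G044600 (r = 0.990), with 25.4 ± 0.926, 36.0 ± 1.82, 18.7 ± 0.752 and 20.9 ± 0.676 FPKM. These 4 genes share the order of the groups with their PAL gene, and with 12 libraries in 4 tight groups r describes mostly 4 group means. Within the family PAL4 and PAL5 were most alike (r = 0.965), and PAL1 and PAL3 next (r = 0.919), but 8.36% of the 6723 genes were at least as like PAL1 as PAL3 was. For PAL4, 0.3% were at least as like it as PAL5 was.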

How the data were processed

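The authors deposited 1 table of FPKM values, with 1 column per library and 4 decimals. The submitters' processing notes list HTSeq 0.6.0, HISAT2 2.1.0 and Bowtie2 2.2.3 and assign them no role. For build, annotation and strand setting, nothing is stated in the labels. Groups were read from the sample titles. Because FPKM values of a gene are whole multiples of what 1 read is worth, the steps between values gave back reads, depth and gene length. Values recomputed from these lay within 0.0001 FPKM or 0.001% of the deposited ones in 100% of cases over the 16698 genes whose FPKM summed to more than 50.

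The main test was limma 3.58.1 in R 4.3.3 with a mean-variance trend on log2(FPKM + 1), two-sided, for the 22640 genes whose mean FPKM reached 1. All 12 libraries entered 1 fit of 4 group means with 8 residual degrees of freedom. Calls are at a Benjamini-Hochberg adjusted p under 0.05 over all genes tested. Fold changes on this scale understate those of low genes, while ratios of means are of FPKM. Scripts were tested on simulated data. Alternatives covered pseudocount, filter, scaling, variance model, replicate block, threshold, voom on recovered reads, and each library left out. The members, tests and lists were chosen with earlier results of these data known. Named genes were the 5 members and, for the 4 highest correlations, the gene most like a member. A list of other phenylpropanoid genes had been fixed by identifier, but no source at hand annotates these identifiers, so it was not used here, and no sequence was printed for the same reason.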

Additional observations from a re-analysis of the deposited data

Results flagged for a closer look

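The PEG effect differed between genotypes for each of the 5 PAL genes by limma's test of the interaction. The change with PEG in OE less that in WT was -0.57 for PAL1, -0.25 for PAL2, -0.77 for PAL3, -0.44 for PAL4 and -0.44 for PAL5 on the log2 scale. Such calls were common, since 6573 of the 22640 genes tested (29%) were called below 0 in this contrast and 6300 above it. For PAL2 the change was called in both genotypes and in opposite directions, at 0.15 in WT and -0.10 in OE, the second of which was not called under several alternatives and was -0.21 with equal FPKM sums and -0.22 with quantile normalization, called in both. Groups of 3 libraries are too small for the check on single outlying samples.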

How the results depend on the processing

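Of 25 tests of a PAL gene in a contrast, 22 kept their direction and their side of the threshold under every alternative run, 25 for the interaction and 26 for the other contrasts. The other 3 are PAL2, PAL4 and PAL5 with PEG in OE. Not every alternative could change a direction. The threshold, the variance model and the replicate block left the fold changes as they were. So did leaving out a library outside a contrast of 2 groups. These runs could move only the p-value or the call. The number of PAL genes called lower with PEG in OE, 1, was 0 with median-of-ratios scaling, no mean-variance trend, only the libraries compared, a threshold of 0.01 or the length trend removed, and 0 to 1 with 1 library left out. With the length trend removed the PAL2 value there reversed, from -0.10 to 0.005. The cause was not tested. Voom on recovered reads called PAL5 higher there (0.145, limma adjusted p = 0.049), as did median-of-ratios scaling (0.168, adjusted p = 0.036). With equal FPKM sums the median of all genes moved by -0.11 in the interaction, and the log2 ratio of the summed PAL level was -0.561 instead of -0.441 for OE against WT under PEG and 0.174 instead of 0.285 for PEG in OE; the relative values of the PAL genes are not touched by this. Deviations of same-numbered libraries correlated at -0.07 to 0.10, and those of other-numbered libraries at -0.12 to 0.08, so no pairing by replicate number was seen. Whether same-numbered libraries were handled together cannot be told from these correlations. With a replicate block, PAL genes called with PEG in OE were again 3 higher and 1 lower. Of all genes, 6915 were called higher and 7644 lower in that contrast, against 6915 and 7710 without the block. For OE against WT without PEG, 7099 genes were called higher and 5258 lower with the block, against 7168 and 5289. Counting error was largest for PAL5, with 863 reads in its lowest library. In OE under PEG the SD of PAL5 was 10% of the mean, against a counting error of 3% if each read is an independent fragment. In WT under PEG it was 4.1% against 2.4%. Without PEG the SD of PAL5 lay below the counting error, at 1.4% against 3% in WT and 2.1% against 3.2% in OE.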
